A study of Mus musculus with 18 samples.

Results

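The endoplasmic reticulum (ER) stress and secretory machinery genes are a list of 55 mouse genes whose products sense unfolded protein, fold, degrade or move secreted proteins. They were taken by name, using older synonyms where the array annotation has them. Of the 55 genes, 52 had a value, out of 16358 genes measured. Atf6, Edem3 and Sec31a had no probe set that carries their symbol alone and were not analysed here. The measured genes comprised 11 sensors and transcription factors, 16 chaperones and folding enzymes, 8 genes of ER-associated degradation, 12 of translocation into the ER and 5 of vesicle export and retrieval.

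RNA was measured in 3 cell populations sorted from the intestinal epithelium of each of 6 female mice of the strain labelled H2B-YFP, aged 99 to 109 days. All mice carried histone H2B fused to YFP behind the Cyp1a1 promoter and had received βNF, which turns that promoter on, 10 days earlier, so every population shares the transgene and the treatment. The populations were Paneth cells (stained by anti-CD24 and by the lectin UEA-1), label-retaining cells called YFP-LRC (CD24 positive, UEA-1 negative, YFP positive) and cells called LCC (CD24 positive, negative for UEA-1 and for YFP). For each population 30000 cells were sorted per mouse, and 8 ng of RNA was amplified and hybridised to 1 Affymetrix Mouse Exon 1.0 ST array, giving 18 arrays. YFP retention depends on which cells the Cyp1a1 promoter labelled, and the gates rather than lineage define each group.

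The unfolded protein response is the pathway by which a cell matches the capacity of its ER to the load of protein it makes for export. Ire1 and Perk, encoded by Ern1 and Eif2ak3, detect unfolded protein in the ER lumen; Ire1 splices the mRNA of Xbp1, and the resulting factor, with Atf6, raises chaperones, degradation factors and translocation channels. Paneth cells at the base of small intestinal crypts are filled with secretory granules and have an extensive ER, and Xbp1 is known to be needed for their maintenance in the mouse.

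Known binding motifs of this pathway were looked for in RefSeq promoter windows of the GRCm38.p6 assembly, from 250 bases before to 50 bases after each gene's start, on both strands. The ER stress element, ERSE (CCAAT, then 9 bases of any kind, then CCACG), lay in the windows of 9 of the 43 listed genes that have one, or 20.9%, against 37 of 27025 genes with a window, or 0.137%. The 9 genes were Calr, Canx, Creld2, Derl3, Dnajc3, Hsp90b1, Hspa5, Pdia6 and Syvn1. ERSE-II (ATTGG, 1 base of any kind, CCACG) lay in 2 windows, Dnajb11 and Herpud1, or 4.65%, against 0.044% of all genes. The element UPRE (TGACGTGG) lay in those of Kdelr3 and Sec24d, against 0.714% of all genes. CARE (TTGCATCA), an element bound by Atf4, lay in 1, Herpud1, against 1.03%. The pieces CCAAT and CCACG alone lay in 72.1% and 74.4% of the 43 windows, against 41.1% and 35.5% of all genes, and these counts include the copies inside ERSE. A match describes the letters in the window and is not a measured binding site.

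The sequences below are shown for genes that were higher in Paneth cells than in LCC and hold ERSE, ERSE-II or UPRE, and for Hsp90b1, which holds ERSE in 2 places and did not pass that test. Dnajb11 is left out because its match lies after the gene start. Each is printed 5′ to 3′ on the strand of the gene, with the motif, on either strand, in capitals.
Hspa5, ERSE, chr2:34772013-34772055, plus strand: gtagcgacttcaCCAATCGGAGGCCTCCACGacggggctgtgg
Calr, ERSE on the opposite strand, chr8:84847063-84847105, minus strand: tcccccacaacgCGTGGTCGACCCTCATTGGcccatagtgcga
Pdia6, ERSE, chr12:17266479-17266521, plus strand: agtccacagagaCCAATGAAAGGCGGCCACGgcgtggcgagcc
Dnajc3, ERSE, chr14:118937815-118937857, plus strand: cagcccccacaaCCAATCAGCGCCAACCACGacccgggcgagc
Herpud1, ERSE-II, chr8:94386365-94386399, plus strand: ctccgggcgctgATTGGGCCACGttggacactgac
Sec24d, UPRE, chr3:123267458-123267489, plus strand: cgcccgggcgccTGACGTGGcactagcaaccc
Kdelr3, UPRE on the opposite strand, chr15:79516366-79516397, plus strand: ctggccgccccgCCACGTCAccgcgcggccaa
Hsp90b1, first ERSE, chr10:86705626-86705668, minus strand: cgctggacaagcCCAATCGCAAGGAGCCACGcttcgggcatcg
Hsp90b1, second ERSE on the opposite strand, chr10:86705521-86705563, minus strand: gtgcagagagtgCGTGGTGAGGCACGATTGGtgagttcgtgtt

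The motif in Hspa5 ended 47 bases before the start of the gene, that in Pdia6 80 bases, that in Dnajc3 87 bases and that in Calr 144 bases before it.

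All values are log2 RMA values, in which a difference of 1 is a doubling, and the level of a gene on an array is the median over its probe sets. Probe sets differ between genes, so levels are compared between arrays and not between genes. A gene was called when limma's test, adjusted by Benjamini-Hochberg over all 16358 genes, gave a p below 0.05. Differences are given ± SE with 6 arrays per population. The SE of a gene comes from a spread shared by all populations, also where their own spreads differ. For Tram1, as an example, the SD was 0.84 in LCC, 0.10 in YFP-LRC and 0.29 in Paneth arrays. In sorted bulk samples, fewer cells of a type and less RNA per cell cannot be told apart.

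The LCC arrays stood apart from the others before any member was considered. The median correlation of an LCC array with the other arrays ran from 0.825 to 0.938, while Paneth arrays gave 0.929 to 0.947 and YFP-LRC arrays 0.916 to 0.950. The residual spread, taken about each gene's median over all arrays, ran from 0.273 to 0.594 in LCC. The LCC arrays of mice 1 and 4 had the lowest spread of the 6. The mean level of the 52 members was 8.39, 8.05, 7.95, 8.35, 7.80 and 7.86 on the LCC arrays of mice 1 to 6. The LCC arrays with a large spread, those of mice 2, 3, 5 and 6, were also the low ones for these genes. The 2 measures are not independent, since both change with the distance of an LCC array from the other populations. The part of this spread in the differences was not tested. YFP-LRC arrays lay between 8.32 and 8.68 and Paneth arrays between 8.54 and 9.06. Every Paneth array was above every LCC array, whereas the lowest YFP-LRC array, that of mouse 3, was below the LCC arrays of mice 1 and 4.

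The sorted populations were checked against marker genes. Of 9 Paneth markers, 7 were higher in Paneth cells than in LCC, among them Mmp7, Ang4 and Pla2g2a, while Lyz1 and Defa24 were not called. The mean level of these markers ran from 9.30 to 10.37 in LCC, from 10.29 to 11.27 in YFP-LRC and from 11.25 to 11.99 in Paneth arrays. Tuft cell markers were higher on Paneth arrays as well, 6 of 7 being called, with mean levels of 8.11 to 9.17 against 7.01 to 7.60 in LCC. Of 8 goblet cell markers, 3 were called higher than LCC in Paneth cells (Muc2, Agr2 and Galnt12) and 3 in YFP-LRC (Muc2, Galnt12 and Klk1). Zg16 and Tff3 had negative differences and were not called, at -0.91 and -0.08 in Paneth cells and -0.71 and -0.34 in YFP-LRC. Plasma and B cells, which also have a large ER, had 0 of 9 markers higher in Paneth cells or YFP-LRC than in LCC by limma, with 0 higher at an unadjusted p below 0.05 and mean levels of 5.76 to 6.01, 5.82 to 6.02 and 5.87 to 6.35. All 9 plasma and B cell markers had a negative Paneth difference, and 1, Jchain, was called lower by limma (-0.73, adjusted p = 0.0481). Of 8 myeloid markers Tyrobp, and of 6 enterocyte markers Fabp2, were called lower than LCC in both other populations. Fabp1 was called higher in Paneth cells. All 6 T cell markers had a negative difference in both comparisons, and 0 were called. Of 9 enteroendocrine markers 4 were lower in Paneth cells than in LCC. Of 6 stem cell markers 5 were higher than LCC in both other populations. Ascl2 was not called and had negative differences, -0.50 in Paneth cells and -0.11 in YFP-LRC. The part of these marker signals in the differences of the secretory genes was not tested.

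Many of the secretory machinery genes were higher in Paneth cells than in LCC. Of 52 members, 26, or 50.0%, were called higher and 0 lower by limma, and 26 were not called. At an unadjusted p below 0.05 there were 36 higher and 1 lower, Sec61b. The share of all genes at that level was not counted. By the adjusted test, 12% of all genes were called higher and 2.53% lower. Members are bright on these arrays: 51 of the 52 lie above the median gene level, and among genes above that level 20.1% were called higher, against 26 of 51 members. The members' median difference was 0.68, a fold of 1.60, against 0.03 over all genes and 0.27 over genes above the median level. After a second quantile normalization it was 0.39, and that over all genes -0.06. In 14 members every Paneth array was above every LCC array, or 26.9%, against 3.58% of all genes. Shares without overlap, here and below, were counted over all genes and not over genes above the median level.

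The same comparison of YFP-LRC with LCC gave 9 members called higher by limma, or 17.3%, and 0 lower. At an unadjusted p below 0.05 there were 24 and 0, and the share of all genes at that level was not counted. For the adjusted calls the background was 6.33% of all genes higher and 0.917% lower, and 11.3% higher among genes above the median level. The members' median difference was 0.46, a fold of 1.37, against 0.04 over all genes and 0.23 over genes above the median level. After a second quantile normalization the members' median was 0.19, and that over all genes -0.04. No array overlap was seen for 3 members, Dnajc10, Sec63 and Spcs3, or 5.77% against 1.94% of all genes. YFP-LRC and Paneth cells were both compared with the same LCC arrays, so their lists are not independent of each other. Of the 9 members, 8 were also called in Paneth cells, and Creb3l1 was called in YFP-LRC alone. The direct test of Creb3l1 between YFP-LRC and Paneth cells gave 0.18 ± 0.22 (adjusted p = 0.994), and no gene called in Paneth cells alone passed that direct test either.

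**Figure D1:**
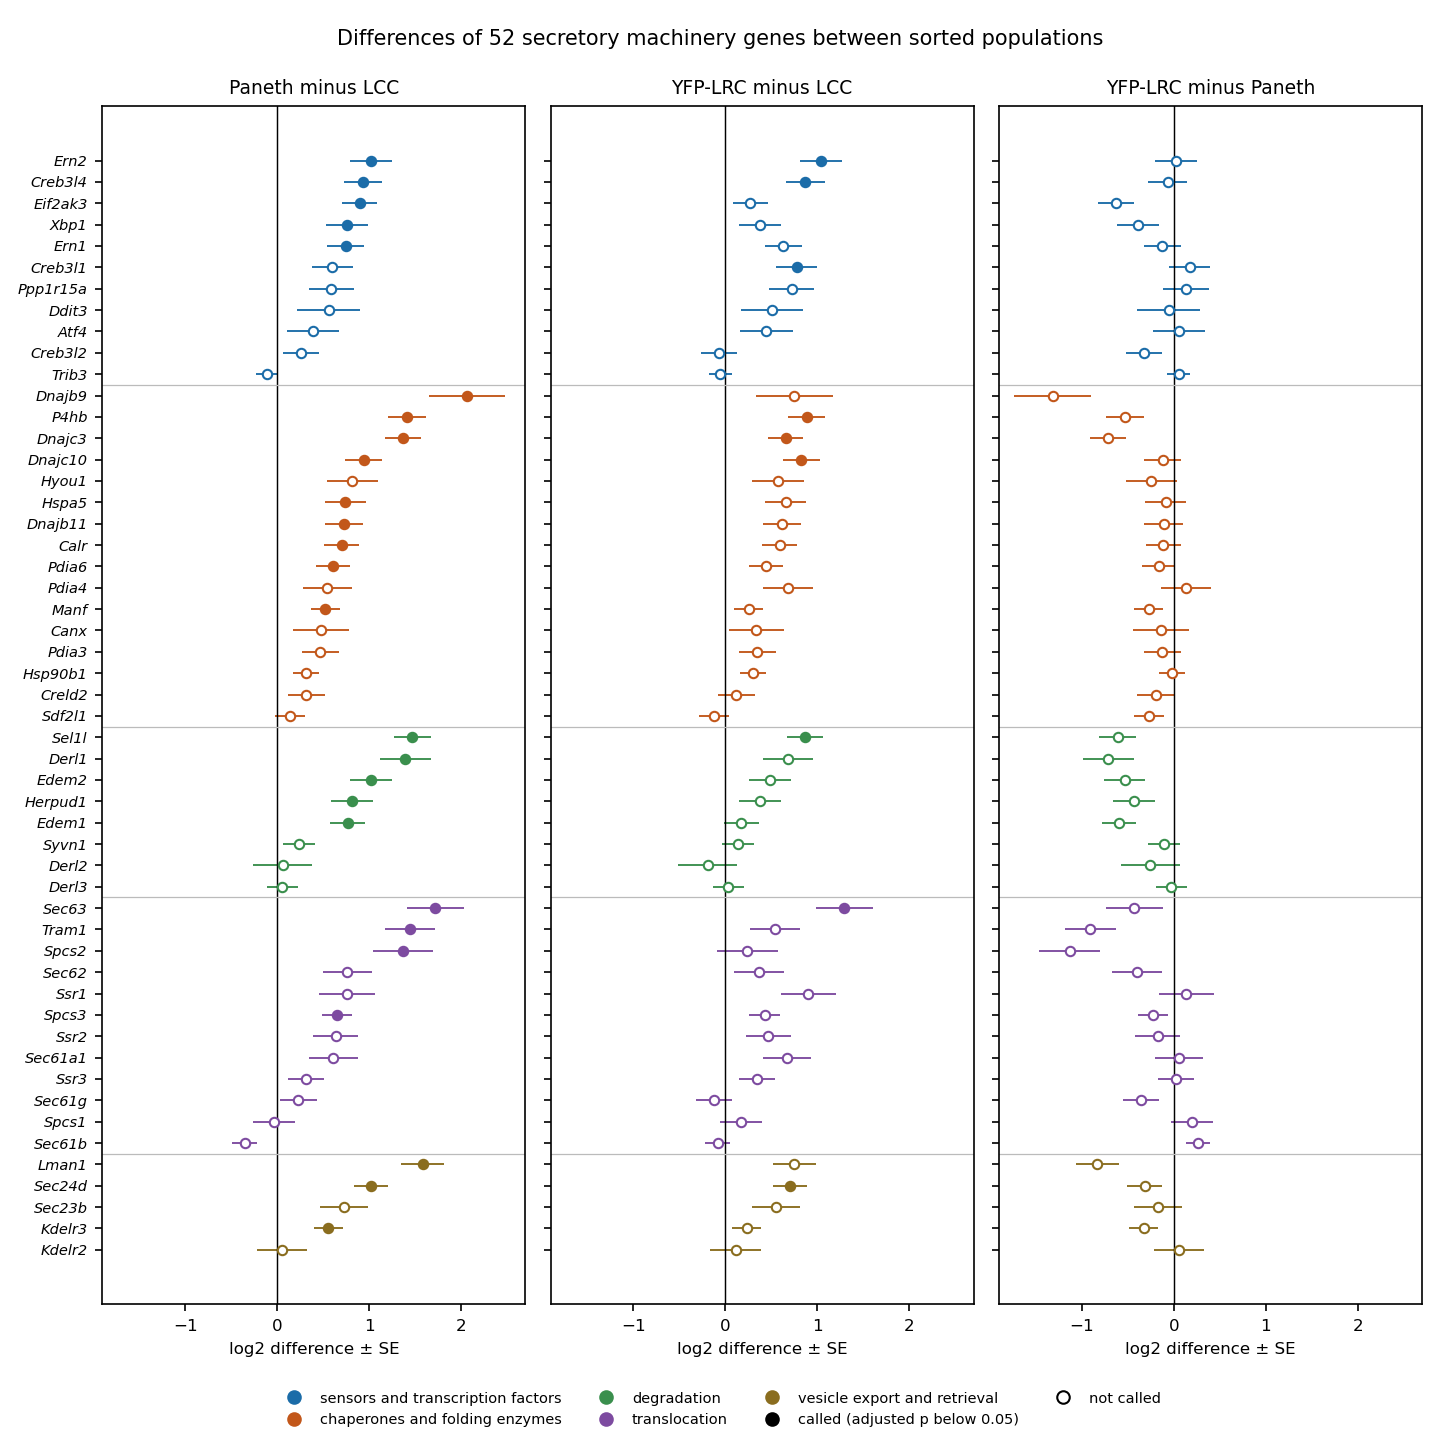
Log2 difference ± SE (horizontal axis) of each of the 52 measured genes (vertical axis, by branch in colour) for Paneth minus LCC, YFP-LRC minus LCC and YFP-LRC minus Paneth. Filled points were called at an adjusted p below 0.05: 26, 9 and 0 genes in the 3 panels.

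Without the LCC arrays of mice 2, 3, 5 and 6, 2 members were called higher in Paneth cells, P4hb and Tram1, and 0 members in the label-retaining cells. That fit keeps 2 LCC arrays, so it also has fewer samples. They are the 2 LCC arrays with the highest mean level of the members. A second quantile normalization gave 12 calls in Paneth cells and 2 in YFP-LRC, and the residual spread as a covariate gave 10 and 0. That spread is taken about the median of all arrays, so the covariate is not independent of the population difference. Calls in YFP-LRC numbered 3 on the arrays of the 2 populations alone and 17 with the mean over probe sets. In Paneth cells they numbered 20 and 34 under the same settings. All 26 and all 9 differences stayed positive there, and under every other setting run. Leaving out 1 array at a time gave 20 to 31 calls in Paneth cells and 5 to 16 in YFP-LRC, the extremes of the latter being without LCC array 5 and without LCC array 1. Leaving out mice 2, 3 and 5 in turn gave 15, 16 and 14 calls in Paneth cells, and leaving out mice 1, 2, 3, 5 and 6 gave 14, 1, 2, 2 and 2 in YFP-LRC. Of the 26 Paneth calls, 19 were kept whichever array was left out and 14 whichever mouse was left out. Of the 9 YFP-LRC calls, 3 were kept whichever array was left out, those of Ern2, P4hb and Sel1l, and 0 whichever mouse was left out.

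Among the sensors and transcription factors, 5 of 11 were higher in Paneth cells than in LCC and 3 of 11 in YFP-LRC, that is 45.5% and 27.3%. Among all genes above the median level these shares were 20.1% and 11.3%, and they are the background for each branch. Ern2 encodes Ire1 beta, the form of Ire1 found in mucosal epithelia. Its level ran from 7.14 to 8.34 (median 7.79) on LCC arrays, from 8.20 to 9.40 (8.73) on YFP-LRC arrays and from 8.44 to 9.51 (8.56) on Paneth arrays. No Paneth array overlapped an LCC array, and the YFP-LRC array of mouse 4 fell below the highest LCC array, that of mouse 1. Ern2 differed by 1.02 ± 0.23 in Paneth cells (fold 2.03, adjusted p = 0.00679) and by 1.04 ± 0.23 in YFP-LRC (fold 2.06, adjusted p = 0.0133), and was higher in 6 of 6 mice in both.

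Ern1 encodes Ire1 alpha, the form found in most cells. It ran from 6.85 to 8.08 (median 7.26) in LCC, from 7.83 to 8.12 (8.00) in YFP-LRC and from 7.70 to 8.82 (8.05) in Paneth arrays. LCC overlapped both other populations through its single high array, that of mouse 1. The Paneth difference of 0.75 ± 0.20 was called (adjusted p = 0.0181), and the YFP-LRC difference of 0.63 ± 0.20 was not (adjusted p = 0.0624).

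Xbp1, the transcription factor downstream of Ire1, ran from 7.03 to 8.61 (median 8.19) in LCC, from 8.22 to 8.69 (8.33) in YFP-LRC and from 8.25 to 9.30 (8.75) in Paneth arrays. The ranges of all 3 populations overlapped, with the LCC array of mouse 2 far below the others. Paneth cells were higher by 0.77 ± 0.23 (fold 1.70, adjusted p = 0.0299) in 5 of 6 mice. The call was lost without the LCC array of mouse 2 or 6 or the Paneth array of mouse 3, 5 or 6, with an adjusted p of up to 0.0754. In YFP-LRC the difference was 0.38 ± 0.23, higher in 3 of 6 mice (adjusted p = 0.318). A single value per gene does not separate the spliced from the unspliced Xbp1 mRNA.

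Eif2ak3 encodes Perk, the sensor that slows translation by phosphorylating the initiation factor eIF2. It ran from 5.90 to 6.88 (median 6.77) in LCC, from 6.47 to 7.17 (6.88) in YFP-LRC and from 7.10 to 8.09 (7.47) in Paneth arrays. Paneth arrays did not overlap LCC arrays, while the YFP-LRC range overlapped both. Its Paneth difference was 0.90 ± 0.19 (fold 1.86, adjusted p = 0.00499) and its YFP-LRC difference 0.27 ± 0.19 (adjusted p = 0.398).

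Creb3l4 and Creb3l1 encode ER-anchored transcription factors that are released by cleavage, as Atf6 is. Creb3l4 ran from 5.38 to 6.96 (median 6.10) in LCC, from 6.55 to 7.43 (7.0) in YFP-LRC and from 6.90 to 7.23 (7.01) in Paneth arrays. One LCC array reached into the range of the other 2 populations. The differences were 0.94 ± 0.21 in Paneth cells (adjusted p = 0.00623) and 0.87 ± 0.21 in YFP-LRC (adjusted p = 0.0194), and without the YFP-LRC array of mouse 5 the second had an adjusted p of 0.0505. Creb3l1 ran from 7.06 to 8.999 (median 8.14) in LCC, from 8.55 to 9.33 (8.83) in YFP-LRC and from 8.48 to 8.95 (8.66) in Paneth arrays. All 3 ranges overlapped, since the LCC array of mouse 4 was as high as those of the other populations. Its YFP-LRC difference of 0.78 ± 0.22 (fold 1.71, adjusted p = 0.0416) was called, and its Paneth difference of 0.60 ± 0.22 was not (adjusted p = 0.0767). The Creb3l1 call was lost without any 1 of 12 arrays, which were LCC 2, 3, 5 and 6, YFP-LRC 1, 2, 4, 5 and 6 and Paneth 2, 3 and 4, with an adjusted p of up to 0.0813.

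The effectors of Perk signalling were not called with all 18 arrays. Atf4, the factor made when translation slows, differed by 0.39 ± 0.29 in Paneth cells and 0.45 ± 0.29 in YFP-LRC (adjusted p = 0.365 and 0.347). Ddit3, which encodes the pro-apoptotic factor Chop, differed by 0.56 ± 0.34 and 0.51 ± 0.34. LCC values of Ddit3 spread widely, from 7.51 to 10.37, and enclosed every array of the other populations. Without the LCC array of mouse 6, the highest for Ddit3, its Paneth difference was called (0.89, adjusted p = 0.041). Ppp1r15a, the phosphatase subunit that restores translation, differed by 0.59 ± 0.25 and 0.72 ± 0.25 (adjusted p = 0.112 and 0.0774). Ppp1r15a was called in both without the LCC array of mouse 2, the highest LCC array for this gene (0.75 and 0.88, adjusted p = 0.0438 and 0.038), and in Paneth cells with bright probe sets alone (0.74, adjusted p = 0.0456). Trib3, a pseudokinase induced by Atf4 and Chop, had the smallest Paneth difference of the sensors, -0.11 ± 0.12 (adjusted p = 0.568), with values from 6.79 to 7.26 (median 6.93) in LCC, 6.71 to 7.22 (6.87) in YFP-LRC and 6.68 to 7.001 (6.89) in Paneth arrays. Creb3l2, a relative of Creb3l1, differed by 0.26 ± 0.20 in Paneth cells.

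The chaperones and folding enzymes were higher in Paneth cells for 9 of 16 members (56.2%, background 20.1%) and in YFP-LRC for 3 of 16 (18.8%, background 11.3%). P4hb, protein disulfide isomerase, which forms and rearranges disulfide bonds, ran from 9.33 to 10.84 (median 10.07) in LCC, from 10.70 to 11.15 (10.96) in YFP-LRC and from 11.19 to 11.87 (11.38) in Paneth arrays. The Paneth range lay above both others without overlap, and the LCC array of mouse 1 reached into the YFP-LRC range. P4hb differed by 1.41 ± 0.20 in Paneth cells (fold 2.66, adjusted p = 0.000207) and by 0.88 ± 0.20 in YFP-LRC (fold 1.85, adjusted p = 0.0168), higher in 6 of 6 mice in both. Its Paneth call was the single one of the 26 kept under every setting run, at adjusted p from 2.87e-05 to 0.0472.

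Dnajb9, Dnajc3, Dnajc10 and Dnajb11 encode ER J-domain proteins, which steer the chaperone BiP to its clients. Dnajb9, or ERdj4, had the largest Paneth difference of all 52 members. It ran from 3.96 to 6.79 (median 5.88) in LCC, from 5.34 to 7.05 (6.65) in YFP-LRC and from 7.27 to 8.67 (7.65) in Paneth arrays. The Paneth arrays were above every array of the other populations, and the LCC arrays were widely spread, with that of mouse 3 lowest. The Paneth difference was 2.07 ± 0.42 (fold 4.19, adjusted p = 0.00357), and the YFP-LRC difference was 0.75 ± 0.42 (adjusted p = 0.273).

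Dnajc3 ran from 8.37 to 9.19 (median 8.73) in LCC, from 8.88 to 9.75 (9.59) in YFP-LRC and from 9.68 to 10.49 (10.23) in Paneth arrays. The YFP-LRC range overlapped both others, and the Paneth range did not overlap that of LCC. Dnajc3 differed by 1.37 ± 0.19 in Paneth cells (fold 2.59, adjusted p = 0.00017) and by 0.65 ± 0.19 in YFP-LRC (fold 1.57, adjusted p = 0.0452), in 6 of 6 mice each. The YFP-LRC call was lost without any 1 of 13 arrays, LCC 2, 3, 5 and 6, YFP-LRC 1, 2, 4, 5 and 6 and Paneth 3, 4, 5 and 6, at an adjusted p of up to 0.108.

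Dnajc10, a reductase that opens disulfide bonds before degradation, ran from 7.33 to 8.06 (median 7.89) in LCC, from 8.44 to 8.77 (8.67) in YFP-LRC and from 8.06 to 9.72 (8.73) in Paneth arrays. LCC lay below both other populations without overlap, by a narrow margin from the lowest Paneth array. The differences were 0.94 ± 0.20 in Paneth cells (adjusted p = 0.00495) and 0.82 ± 0.20 in YFP-LRC (adjusted p = 0.0214). Without the LCC array of mouse 5 the YFP-LRC value had an adjusted p of 0.0519. Dnajb11 ran from 8.57 to 9.92 (median 9.36) in LCC, from 9.58 to 10.25 (9.92) in YFP-LRC and from 9.62 to 10.35 (10.09) in Paneth arrays, all 3 overlapping. Its Paneth difference was 0.73 ± 0.21 (adjusted p = 0.0254), lost at up to 0.0619 without LCC 3, 5 or 6 or Paneth 2, 3 or 5.

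Hspa5, which encodes BiP, the Hsp70 of the ER, ran from 9.56 to 10.81 (median 10.38) in LCC, from 10.67 to 11.38 (10.90) in YFP-LRC and from 10.41 to 11.502 (10.95) in Paneth arrays. The ranges overlapped, with the Paneth array of mouse 1 the lowest of its group. Paneth cells were higher by 0.74 ± 0.22 (fold 1.67, adjusted p = 0.0296) and YFP-LRC by 0.65 ± 0.22 (adjusted p = 0.075), each in 5 of 6 mice. The Paneth call was lost without LCC 2, 3 or 6 or Paneth 5 or 6, at up to 0.0742. Calr, the lectin chaperone calreticulin, ran from 9.68 to 10.68 (median 10.27) in LCC, from 10.47 to 11.18 (10.77) in YFP-LRC and from 10.18 to 11.25 (11.03) in Paneth arrays. Its Paneth difference was 0.70 ± 0.19 (adjusted p = 0.0182), although the Paneth array of mouse 1 lay within the LCC range. The YFP-LRC difference was 0.59 ± 0.19 (adjusted p = 0.0616, and 0.0462 with mouse as a block).

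Pdia6, a disulfide isomerase, ran from 8.06 to 9.09 (median 8.78) in LCC, from 8.95 to 9.37 (9.20) in YFP-LRC and from 8.86 to 9.99 (9.26) in Paneth arrays. Manf, a secreted factor induced by ER stress, ran from 8.99 to 10.06 (median 9.54), from 9.61 to 10.13 (9.71) and from 9.82 to 10.31 (10.04) in the same order. Both overlapped across all populations. Paneth cells were higher by 0.61 ± 0.18 for Pdia6 (adjusted p = 0.0309) and by 0.52 ± 0.16 for Manf (adjusted p = 0.0327), and both calls were lost with mouse as a block. They were also lost without LCC 3, 5 or 6 or Paneth 5 or 6, without Paneth 2 for Pdia6 and without Paneth 3 for Manf, at up to 0.077 and 0.0795.

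The other 7 members of the branch, Hsp90b1, Canx, Pdia3, Pdia4, Creld2, Sdf2l1 and Hyou1, were called in neither comparison with LCC. Their Paneth differences were all positive, from 0.15 for Sdf2l1 to 0.82 ± 0.28 for Hyou1, a chaperone and exchange factor of BiP (adjusted p = 0.0537, and 0.0164 with mouse as a block). Sdf2l1, with the smallest difference of the branch, ran from 7.30 to 7.92 (median 7.64) in LCC, from 7.29 to 7.77 (7.46) in YFP-LRC and from 7.24 to 8.22 (7.81) in Paneth arrays. Hsp90b1, or Grp94, the Hsp90 of the ER, differed by 0.32 ± 0.14 in Paneth cells and 0.30 ± 0.14 in YFP-LRC (adjusted p = 0.137 and 0.197). Hsp90b1, with 2 copies of ERSE in its window, thus passed neither test. Of the 9 members with ERSE, 4 were called in Paneth cells with a median difference over the 9 of 0.48, and of 32 measured members whose window lacks it 16 were called, with a median of 0.74.

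**Figure D2:**
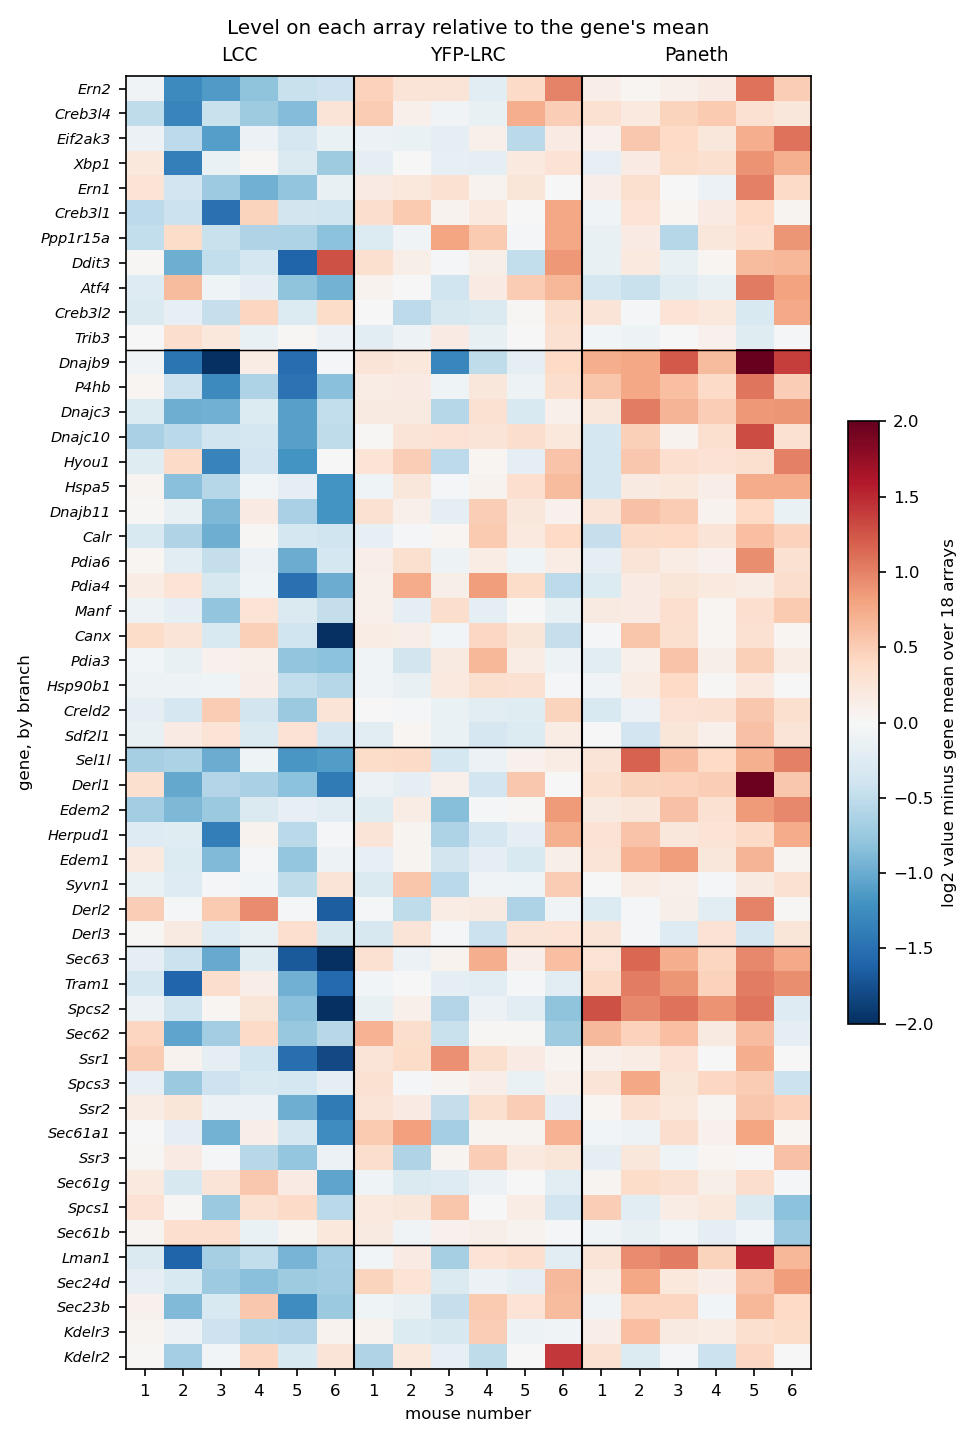
Log2 level of each gene (rows, by branch) on each array minus that gene's mean over the 18 arrays (colour, log2 units; values beyond the ends of the scale take the end colour), with mouse numbers along the horizontal axis. Most genes are low on the LCC arrays and high on the Paneth arrays, and LCC arrays 1 and 4 are closer to the other populations than LCC arrays 2, 3, 5 and 6.

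ER-associated degradation returns misfolded proteins to the cytosol for the proteasome. In this branch 5 of 8 members, or 62.5% against the background of 20.1%, were higher in Paneth cells. In YFP-LRC 1 of 8, Sel1l, was higher, or 12.5%, which is near the background of 11.3%. Sel1l, the adaptor of the ubiquitin ligase Hrd1, ran from 6.63 to 7.69 (median 6.96) in LCC, from 7.44 to 8.17 (7.90) in YFP-LRC and from 8.04 to 8.96 (8.45) in Paneth arrays. Paneth and LCC arrays did not overlap, and YFP-LRC overlapped both. The differences were 1.47 ± 0.20 in Paneth cells (fold 2.77, adjusted p = 0.000103) and 0.86 ± 0.20 in YFP-LRC (fold 1.82, adjusted p = 0.0157). The Paneth difference had the same sign on 26 of 26 Sel1l probe sets.

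Derl1, a channel-forming member of the retrotranslocation complex, ran from 5.55 to 7.28 (median 6.23) in LCC, from 6.57 to 7.49 (6.89) in YFP-LRC and from 7.27 to 8.91 (7.43) in Paneth arrays. The LCC array of mouse 1 met the low end of the Paneth range, where the Paneth array of mouse 5 stood far above the rest. Its Paneth difference was 1.40 ± 0.28 (fold 2.63, adjusted p = 0.00319) and its YFP-LRC difference 0.68 ± 0.28 (adjusted p = 0.134). Edem1 and Edem2 take part in the trimming of mannose that marks glycoproteins for degradation. Edem2 ran from 6.68 to 7.40 (median 7.08) in LCC, from 6.72 to 8.42 (7.57) in YFP-LRC and from 7.75 to 8.53 (8.02) in Paneth arrays. Edem1 ran from 6.82 to 7.90 (median 7.52), from 7.34 to 7.82 (7.54) and from 7.76 to 8.54 (8.17) in the same order. Paneth arrays were clear of LCC for Edem2, and for Edem1 the lowest Paneth array lay below the highest LCC array. Paneth differences were 1.02 ± 0.23 for Edem2 (adjusted p = 0.00623) and 0.77 ± 0.19 for Edem1 (adjusted p = 0.0108), and the YFP-LRC differences of 0.49 ± 0.23 and 0.17 ± 0.19 were not called (adjusted p = 0.19 and 0.602).

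Herpud1, a membrane protein that helps assemble the ligase complex, ran from 7.08 to 8.53 (median 8.20) in LCC, from 7.84 to 9.15 (8.38) in YFP-LRC and from 8.68 to 9.20 (8.79) in Paneth arrays. Its Paneth arrays were all above the LCC arrays. The Paneth difference was 0.81 ± 0.23 (fold 1.76, adjusted p = 0.0237), lost at up to 0.0534 without LCC 3 or Paneth 6, and the YFP-LRC difference was 0.38 ± 0.23 (adjusted p = 0.32). Syvn1, which encodes the ligase Hrd1 itself, differed by 0.24 ± 0.18 in Paneth cells (adjusted p = 0.36), higher in 6 of 6 mice. Derl2 differed by 0.06 ± 0.32, with LCC values spread from 5.88 to 8.47. Derl3, the smallest difference of the branch at 0.06 ± 0.17 (adjusted p = 0.837), ran from 6.99 to 7.64 (median 7.24) in LCC, from 6.87 to 7.58 (7.41) in YFP-LRC and from 6.97 to 7.60 (7.41) in Paneth arrays. Of the Derlin genes, Derl1 passed the Paneth test and Derl2 and Derl3 did not, and the difference between the genes was not tested.

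Translocation moves the nascent chain through the Sec61 channel and cuts its signal peptide. In this branch 4 of 12 members, or 33.3% against the background of 20.1%, were higher in Paneth cells. In YFP-LRC 1 of 12, Sec63, was higher, or 8.33%, which lies between the 6.33% of all genes and the 11.3% of genes above the median level. Sec63, a channel partner that brings BiP to the pore, ran from 5.92 to 8.20 (median 7.69) in LCC, from 8.28 to 9.13 (8.62) in YFP-LRC and from 8.68 to 9.55 (9.15) in Paneth arrays. LCC lay below both other populations on every array, with the LCC array of mouse 6 lowest. Sec63 differed by 1.72 ± 0.31 in Paneth cells (fold 3.30, adjusted p = 0.00152) and by 1.29 ± 0.31 in YFP-LRC (fold 2.45, adjusted p = 0.0195), and without the YFP-LRC array of mouse 4 the second had an adjusted p of 0.0507.

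Tram1, which assists chains as they enter the membrane, ran from 6.68 to 8.64 (median 7.62) in LCC, from 8.05 to 8.26 (8.15) in YFP-LRC and from 8.65 to 9.31 (9.18) in Paneth arrays. Paneth arrays were above every other array, and the narrow YFP-LRC range lay inside the LCC range. The Paneth difference was 1.44 ± 0.27 (fold 2.72, adjusted p = 0.00221) and the YFP-LRC difference 0.54 ± 0.27 (adjusted p = 0.23).

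Spcs2 and Spcs3 encode subunits of the signal peptidase. Spcs2 ran from 6.46 to 8.84 (median 8.34) in LCC, from 7.80 to 8.70 (8.41) in YFP-LRC and from 8.33 to 9.87 (9.61) in Paneth arrays. All Paneth arrays but that of mouse 6, at 8.33, were above all other arrays. Its Paneth difference was 1.37 ± 0.33 (fold 2.59, adjusted p = 0.00949), and its YFP-LRC difference was 0.24 ± 0.33 (adjusted p = 0.691). Spcs3 ran from 8.27 to 8.85 (median 8.68) in LCC, from 8.86 to 9.30 (9.08) in YFP-LRC and from 8.57 to 9.78 (9.34) in Paneth arrays. Here the YFP-LRC arrays cleared LCC by a narrow margin, while 1 Paneth array fell inside the LCC range. Spcs3 differed by 0.65 ± 0.17 in Paneth cells (adjusted p = 0.0138) and by 0.43 ± 0.17 in YFP-LRC (adjusted p = 0.119). Spcs1 had the smallest difference of the branch, -0.03 ± 0.23 (adjusted p = 0.938), with ranges of 7.44 to 8.58 (median 8.34), 7.81 to 8.75 (8.36) and 7.37 to 8.68 (8.16) in LCC, YFP-LRC and Paneth arrays.

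The genes of the channel itself gave differing values. Sec61a1, the pore subunit, differed by 0.61 ± 0.26 in Paneth cells and 0.67 ± 0.26 in YFP-LRC (adjusted p = 0.12 and 0.118). Sec61g, a small subunit, differed by 0.23 ± 0.20 and -0.12 ± 0.20. Sec61b, the other small subunit, was on the opposite side of most members in Paneth cells. It ran from 8.62 to 9.10 (median 8.89) in LCC, from 8.69 to 8.93 (8.84) in YFP-LRC and from 8.03 to 8.71 (8.64) in Paneth arrays. The Paneth array was the lower one in 6 of 6 mice and on 8 of 8 probe sets, and the difference of -0.35 ± 0.13 was not called (adjusted p = 0.0774). It was called lower after a second quantile normalization (-0.73, adjusted p = 0.0141), after centring each array (-0.47, adjusted p = 0.0361), with the mean over probe sets (-0.38, adjusted p = 0.0221) and without the LCC array of mouse 4 (-0.41, adjusted p = 0.0435). Sec62 and the translocon-associated Ssr1, Ssr2 and Ssr3 were called in neither comparison, with Paneth differences from 0.32 to 0.76. With the mean over probe sets Sec62, Ssr1 and Ssr3 were called in Paneth cells (adjusted p = 0.00131, 0.0412 and 0.00921), and Ssr2 was not.

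Vesicle export and retrieval carry folded cargo from the ER and return escaped residents. In this branch 3 of 5 members were higher in Paneth cells and 1 of 5, Sec24d, in YFP-LRC, against the backgrounds of 20.1% and 11.3%. Lman1, or ERGIC-53, a cargo receptor for glycoproteins, ran from 6.73 to 8.04 (median 7.66) in LCC, from 7.68 to 8.66 (8.39) in YFP-LRC and from 8.59 to 9.83 (9.14) in Paneth arrays. Paneth arrays lay above LCC without overlap, and YFP-LRC overlapped both. Lman1 differed by 1.58 ± 0.23 in Paneth cells (fold 2.995, adjusted p = 0.000239). In YFP-LRC the difference was 0.75 ± 0.23, higher in 6 of 6 mice but not called (adjusted p = 0.0535). It was called there with the mean over probe sets (0.88, adjusted p = 0.00585) and bright probe sets alone (0.93, adjusted p = 0.0193). It was not called after a second quantile normalization or with mouse as a block.

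Sec24d, a cargo-binding subunit of the COPII coat, ran from 6.53 to 7.17 (median 6.67) in LCC, from 7.08 to 8.01 (7.45) in YFP-LRC and from 7.501 to 8.21 (7.75) in Paneth arrays. The LCC and Paneth ranges were separate, and YFP-LRC overlapped both. The differences were 1.02 ± 0.19 in Paneth cells (fold 2.03, adjusted p = 0.00169) and 0.71 ± 0.19 in YFP-LRC (fold 1.63, adjusted p = 0.0306). Leaving out LCC 3, 5 or 6 or YFP-LRC 1 or 2 ended the second call, at up to 0.066. Kdelr3, a receptor that returns proteins ending in the KDEL signal, ran from 6.05 to 6.71 (median 6.37) in LCC, from 6.33 to 7.13 (6.56) in YFP-LRC and from 6.78 to 7.24 (6.89) in Paneth arrays. No Paneth array overlapped LCC. Its Paneth difference was 0.56 ± 0.16 (adjusted p = 0.0257), lost at up to 0.0631 without LCC 3 or 5 or Paneth 2. Kdelr2, its paralog, had the smallest difference of the branch, 0.05 ± 0.28 (adjusted p = 0.91), and ran from 8.44 to 9.56 (median 9.11), from 8.52 to 10.54 (9.05) and from 8.70 to 9.55 (9.12) in LCC, YFP-LRC and Paneth arrays. Sec23b, the inner coat subunit, differed by 0.73 ± 0.26 in Paneth cells (adjusted p = 0.0659).

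**Figure D3:**
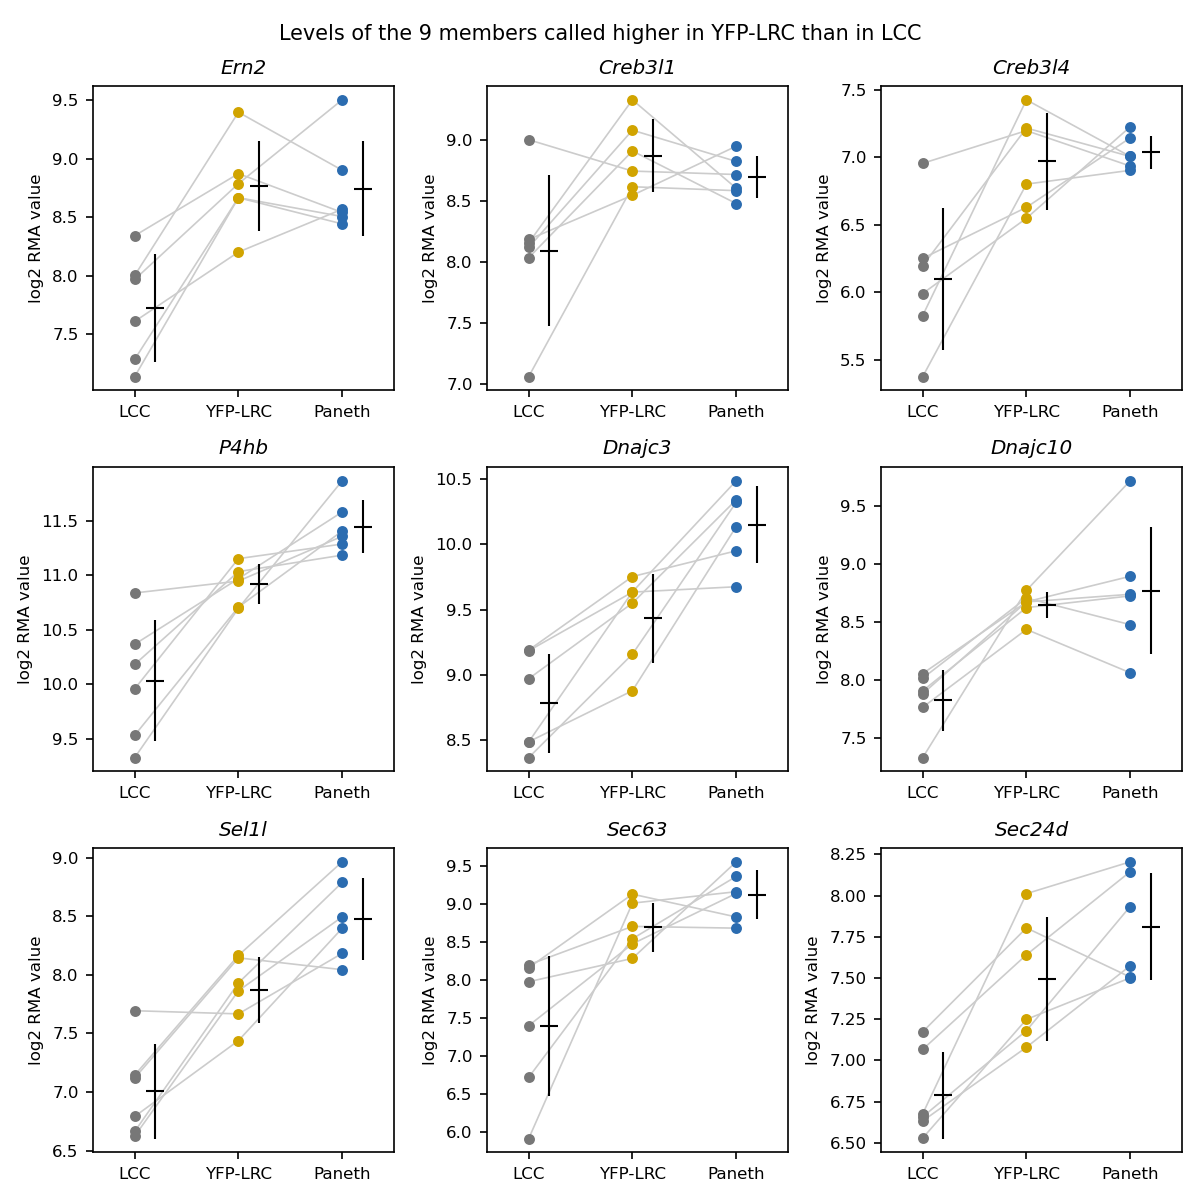
Log2 RMA values (vertical axis, a separate scale for each gene) of the 9 genes called higher in YFP-LRC than in LCC, by population (horizontal axis). Each point is 1 array, grey lines join the arrays of 1 mouse, and the black bars are the mean ± SD of 6 arrays. LCC has the lowest mean for all 9 genes, and the Paneth range of P4hb lies above its YFP-LRC range.

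Between YFP-LRC and Paneth cells no member was called by limma. The background was 0.0550% of genes called higher and 0.300% lower, so few genes of any kind passed this test. Of 52 differences, 40 were negative, that is lower in YFP-LRC, and 12 positive, with a median of -0.17 against 0.00 over all genes. At an unadjusted p below 0.05 there were 11 members, all lower in YFP-LRC. In 12 members YFP-LRC was the lower one in 6 of 6 mice, and Sec61b alone was the higher one in 6 of 6. Shares of all genes were not counted for the unadjusted p or for 6 of 6 mice. On the 8 probe sets of Sec61b, YFP-LRC was higher on 3 and lower on 5. With the mean over probe sets, Sec61b differed from LCC by -0.55 in YFP-LRC and -0.38 in Paneth cells. The ranges did not overlap for 3 members, P4hb, Dnajb9 and Tram1, or 5.77% against 0.605% of all genes. Markers of cell types moved in this comparison too. Of 7 tuft markers 3 were called lower in YFP-LRC than in Paneth cells, and all 7 were lower in 6 of 6 mice. Of 9 Paneth markers 2, Ang4 and Mptx1, were called lower, and of 9 enteroendocrine markers 4 were called higher. The part of these markers in the members' differences was not tested.

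The lowest adjusted p of this comparison was 0.194, for Dnajc3, at -0.72 ± 0.19. The differences of Lman1 (-0.83 ± 0.23, adjusted p = 0.231), Spcs2 (-1.13 ± 0.33, adjusted p = 0.27), Tram1 (-0.91 ± 0.27, adjusted p = 0.338), Eif2ak3 (-0.63 ± 0.19, adjusted p = 0.347) and Dnajb9 (-1.32 ± 0.42, adjusted p = 0.392) were of similar or larger size. All 5 were lower in YFP-LRC in 6 of 6 mice and none passed the test. Edem1 (-0.595 ± 0.19, adjusted p = 0.385) and Sel1l (-0.61 ± 0.20, adjusted p = 0.405) did not pass either and were lower in 5 of 6 mice. All 8 genes of degradation had a negative difference, with a branch median of -0.48. The medians of the other branches were -0.32 for vesicle export and retrieval, -0.20 for translocation, -0.15 for the chaperones and -0.06 for the sensors, and the difference between branches was not tested. Ern2 and Creb3l4 differed by 0.02 ± 0.23 and -0.07 ± 0.21.

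Calls between YFP-LRC and Paneth cells appeared for 4 members under other settings. Spcs2 was called lower in YFP-LRC with mouse as a block (adjusted p = 0.025), with array weights (0.0305), with the residual spread as a covariate (0.0252), without the LCC array of mouse 6 (0.0398) and without mouse 6 (0.0041). On the arrays of the 2 populations alone, Spcs2 and Tram1 were called (adjusted p = 0.0439 and 0.00623). With LCC arrays 1 and 4 alone as the third group, Spcs2, Tram1 and Dnajb9 were called (0.0359, 0.00622 and 0.0471), and with the mean over probe sets Spcs3 was (-0.90, adjusted p = 0.0176). In the fit as reported, the LCC arrays enter this comparison through the shared estimate of the spread and the normalization over all arrays. With the covariate or array weights the difference itself also changed, for Spcs2 from -1.13 to -1.19 and -1.12.

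**Figure D4:**
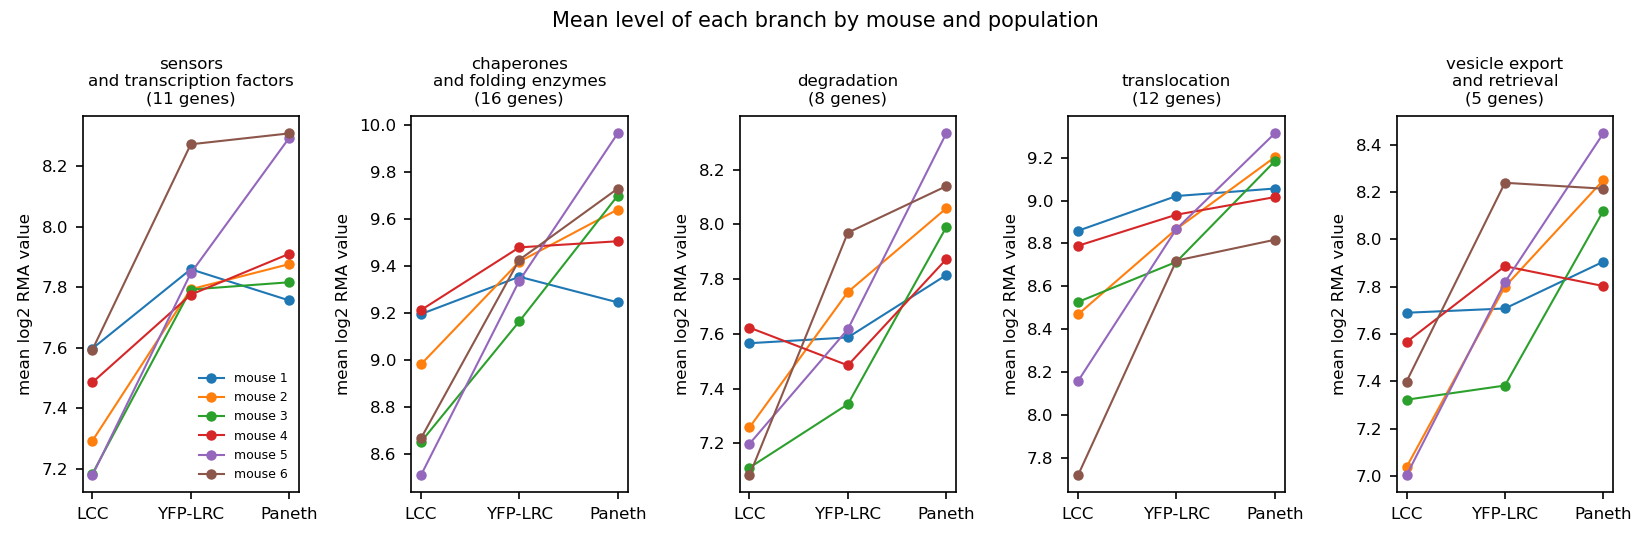
Mean log2 RMA value over the genes of each branch (vertical axis, a separate scale per panel) by population (horizontal axis), with 1 line per mouse. Paneth is above LCC in all 6 mice in each panel, while in mouse 4 YFP-LRC is below LCC for degradation.

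The step from LCC to the other populations differed between mice. For the chaperones, the LCC array of mouse 1 had a branch mean of 9.20 and its Paneth array 9.25, whereas in mouse 5 these were 8.51 and 9.96. For translocation, the LCC array of mouse 6 was at 7.72, the lowest of all, and its Paneth array at 8.82 was the lowest Paneth array. In mouse 4 degradation was at 7.62 in LCC and 7.49 in the label-retaining cells. The LCC arrays of mice 1 and 4 had the highest LCC means for the chaperones, at 9.20 and 9.21, and the smallest chaperone steps to the Paneth array of the same mouse.

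A second list of 103 genes of the same pathways, 94 of them measured, was set beside the members. In Paneth cells 42 of 94, or 44.7%, were higher than in LCC and 0 lower, with a median difference of 0.64. The background was 12% of all genes and 20.1% of genes above the median level. In YFP-LRC 17, or 18.1%, were higher and 0 lower, with a median of 0.43, against a background of 6.33% and 11.3%. At an unadjusted p below 0.05, 1 gene was lower in each comparison. Those called in Paneth cells included Mbtps1, the protease that cleaves Atf6 (0.95, adjusted p = 0.00646), and Asns, an Atf4 target (1.63, adjusted p = 0.00152). They also included Ube2j1, a ubiquitin-conjugating enzyme of the ER (1.62, adjusted p = 0.00293), Srpr, a subunit of the receptor for the signal recognition particle (1.47, adjusted p = 0.000286), Sec11c, a catalytic subunit of the signal peptidase (1.29, adjusted p = 0.00051), and Tmed10, a cargo receptor (1.45, adjusted p = 0.00244). Trib3, the member induced by Atf4 and Chop, was not called in Paneth cells (-0.11, adjusted p = 0.568). Chac1 (0.19) and Sesn2 (-0.305) of the second list were not called there either. The share called higher in Paneth cells was 15 of 23 for export, 7 of 15 for degradation and 8 of 19 for translocation. It was 5 of 17 for folding and 7 of 20 for sensors. In YFP-LRC the counts were 4, 0, 4, 5 and 4 in the same order, and Mbtps1 (1.08, adjusted p = 0.00813) and Srpr (0.98, adjusted p = 0.0148) were among them. Between YFP-LRC and Paneth cells 0 of 94 were called by limma. At an unadjusted p below 0.05 there were 14, of which 2 were higher and 12 lower in YFP-LRC. The share of all genes at that unadjusted level was not counted.

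**Figure D5:**
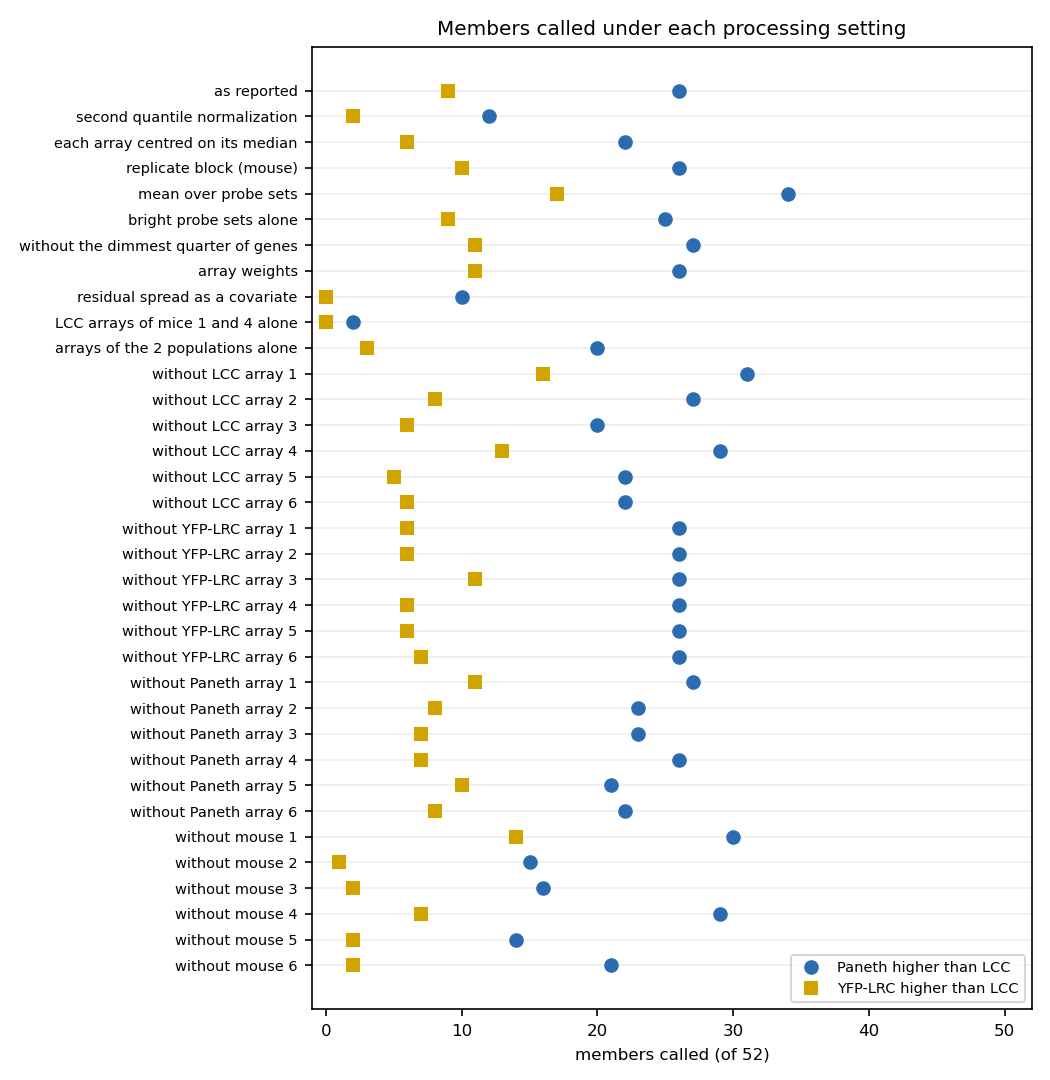
Number of the 52 genes called higher (horizontal axis) in Paneth cells (circles) and in YFP-LRC (squares) than in LCC under each processing setting (vertical axis). The counts are 26 and 9 as reported, and they are lowest, 2 and 0, with the LCC arrays of mice 1 and 4 alone.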

How the data were processed

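Per the file headers, the authors made the deposited log2 values with Affymetrix Power Tools 1.12.0: RMA with quantile normalization over all 18 arrays and median polish, for core probe sets of mm9. Both deposited tables hold the same 229581 probe sets, with a largest difference of 0. No scan date or batch is given. The 209279 probe sets with 1 symbol were summarised to 16358 genes (median 11 probe sets each); those with several symbols (4446) or none (15856) were left out. limma 3.58.1 in R 4.3.3 fitted a mean per population over all 18 arrays. Tests were 2-sided, adjusted by Benjamini-Hochberg over all genes and called below 0.05. The fit was also run on simulated data with the same spread in all populations. Those data lack the wider spread of the LCC arrays, so they cannot show how reliable calls against LCC are. No filter on low values was applied. Shares of all genes were counted for adjusted calls and for ranges without overlap, and not for unadjusted p or counts over mice. The number of arrays, 6 per population, limits the precision.

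The members and lists were chosen with earlier results of these data known. All members are described by branch; those called, and the largest and smallest Paneth difference of each branch, are given with their ranges, and the other pathway genes by counts with values for called ones. Sec61b, Ddit3, Derl2, the branch means of single mice and the other values outside that rule were chosen after their values were seen. Promoter sequences are RefSeq's on GRCm38.p6, and no mm9 coordinate is used. Populations share mice by the series design text, though the litter label of the YFP-LRC array of mouse 6 differs from that of the other arrays of mouse 6, so counts over mice and the mouse block take its replicate number on trust. Deviations of same-numbered arrays correlated at -0.11 to 0.41, over 0.1 in 6 of 18 pairs. The 34 alternatives included a mouse block, 2 scalings, other summaries of probe sets, a dim-gene filter and array weights. The rest were the residual spread as a covariate, fewer arrays, and each array and mouse left out.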

Additional observations from a re-analysis of the deposited data

Results flagged for a closer look

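In 11 of 156 groups of 6 arrays (52 members in 3 populations), the highest or lowest array passed Dixon's test, in which the gap to the nearest other array is set against the group's range; chance gives about 1 in 20. On LCC arrays, Ppp1r15a was high in mouse 2 at 8.053 (others 6.87 to 7.25), and Canx (7.889) and Derl2 (5.88) were low in mouse 6 (others 9.497 to 10.37 and 7.502 to 8.47). On Paneth arrays, mouse 1 was low for Calr at 10.18 (others 10.90 to 11.25) and Pdia4 at 8.356 (others 8.78 to 8.97). Mouse 5 was high for Derl1 at 8.912 (others 7.27 to 7.495) and Derl2 at 8.522 (others 7.26 to 7.65). Mouse 6 was low for Sec61b at 8.033 (others 8.58 to 8.71) and Spcs2 at 8.334 (others 9.49 to 9.87). On YFP-LRC arrays, Creld2 was high in mouse 6 at 7.971 (others 7.28 to 7.53) and Ssr1 in mouse 3 at 10.571 (others 9.72 to 10.03). The calls of Calr, Derl1 and Spcs2 in Paneth cells against LCC were kept without any 1 array. Calr lost its call without any 1 of 4 mice (adjusted p up to 0.1) and Spcs2 without 1 mouse (0.0621), Derl1 lost it with bright probe sets alone (difference 0.42), and all 3 lost it with the residual spread as a covariate and with LCC arrays 1 and 4 alone.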

How the results depend on the processing

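Members called higher in Paneth cells than in LCC numbered 26 as reported, 12 after a second quantile normalization, 10 with the residual spread as a covariate and 2 with LCC arrays 1 and 4 alone, and 14 to 31 with 1 array or mouse left out (15, 16 and 14 without mice 2, 3 and 5). Members called higher in YFP-LRC than in LCC numbered 9 as reported, 2 after the second quantile normalization, 17 with the mean over probe sets, 0 with the covariate, 0 with LCC arrays 1 and 4 alone and 3 on the arrays of the 2 populations alone, and 1 to 16 with 1 array or mouse left out (14, 1, 2, 2 and 2 without mice 1, 2, 3, 5 and 6, 5 without LCC array 5 and 16 without LCC array 1). Members called higher in Paneth cells numbered 34 with the mean over probe sets and 20 on the arrays of the 2 populations alone. Members lower than LCC numbered 0 as reported. In Paneth cells there was 1, Sec61b, after the second quantile normalization, centring or the mean over probe sets, and 0 to 1 with 1 array or mouse left out; in YFP-LRC there was 1, also Sec61b, with the mean over probe sets. Members lower in YFP-LRC than in Paneth cells numbered 0 as reported, 1 with the mouse block, the mean over probe sets, array weights or the covariate, 3 with LCC arrays 1 and 4 alone, 2 on the arrays of the 2 populations alone, and 0 to 1 with 1 array or mouse left out. With the replicate block (mouse) there were 26 members higher in Paneth cells and 10 in YFP-LRC than in LCC; Pdia6 and Manf lost and Hyou1 and Sec62 gained a Paneth call, Calr gained a YFP-LRC call and Spcs2 one against Paneth cells, and no other member's call changed. The members' median Paneth difference was 0.68 as reported, 0.39 after the second quantile normalization and 0.56 after centring, and the YFP-LRC difference 0.46, 0.19 and 0.36; the medians over all genes then moved from 0.03 to -0.06 and -0.08, and from 0.04 to -0.04 and -0.06. No difference called as reported changed sign under any alternative. The cause of these changes was not tested, except that settings with fewer arrays have fewer samples. The residual spread, used as the covariate and lowest in LCC arrays 1 and 4, also rises with the distance of LCC from the other populations. The spread among LCC arrays limits every comparison with LCC. Through the shared spread it also enters the SE between YFP-LRC and Paneth cells.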
